A study of Mus musculus with 59 samples.

Results

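Fluoxetine was compared with vehicle in the prefrontal cortex of male mice heterozygous for Ash1l. The comparison takes the 10 libraries whose labels give the Ash1l heterozygous genotype (HT), male sex and one of these treatments, out of 59 libraries in the series. HT fluoxetine males and HT vehicle males had 5 libraries each. All mice were C57BL/6J and were analysed on postnatal day 25, after 3 weeks of treatment from postnatal day 3 to 24. The drug reached the pups through the milk of the mother, and the labels give neither the dose nor the Ash1l allele. Wild-type (WT) males, HT females and WT females, each with 5 fluoxetine and 5 vehicle libraries, and 5 HT lithium males are set beside them where stated. The labels name no litter, dam or cage. A p-value here therefore reflects variation among the sequenced libraries alone, all 59 of which entered the estimate of spread. A litter shared by animals of one treatment cannot be told apart from the drug.

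Ash1l encodes a histone methyltransferase of the Trithorax group that methylates lysine 36 of histone H3, and loss of one copy has been linked to autism and intellectual disability. Fluoxetine blocks the serotonin transporter and so prolongs serotonin signalling at the synapse. In cortical neurons, synaptic activity and growth factor signals induce within minutes a set of immediate early genes, many of which encode transcription factors such as Fos and Egr1. The same tissue makes its own cholesterol, because lipoproteins do not cross the blood-brain barrier, and synthesis is high in the weeks when myelin is laid down.

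The values are read counts that the authors divided by a size factor for each library, called normalised read counts here. The 10 libraries held 26.3 to 36.2 M reads. Differences were tested with limma on log2(normalised read count + 1), with p-values adjusted by Benjamini-Hochberg over the 17875 genes tested. A gene is said to rise or fall where the adjusted p was under 0.05, and the log2 fold change is always fluoxetine over vehicle, with its standard error. Because bulk tissue was sequenced, fewer cells of a type and less RNA per cell cannot be told apart.

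Ash1l itself (ENSMUSG00000028053) did not pass the test. Its normalised read count was 3980, 4074, 3949, 4173 and 3964 in HT fluoxetine males, against 4074, 3966, 4307, 3889 and 4244 in HT vehicle males. The groups overlapped (log2 fold change -0.02 ± 0.056, adjusted p = 0.85, limma). All 10 values lay under the lowest of the 15 WT males, which ranged from 4703 to 6218, so the genotype labels and the gene matched in these males. Over all 30 WT libraries the lowest value was 3557, in a female.

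Some libraries stood apart in their levels of markers of other brain regions. The mean log2 level of 15 markers of the olfactory bulb and of migrating interneurons, relative to all 59 libraries, was 2.16 in HT fluoxetine male replicate 2 and 0.998 in replicate 4, against -0.813, -1.31 and -0.941 in the other fluoxetine libraries. Among HT vehicle males it was 1.75 in replicate 5 and 0.600 in replicate 3, against -0.607, -0.744 and -0.760 in the others. Striatal markers were high in HT fluoxetine male replicate 5 (0.615) and HT vehicle male replicate 5 (1.12). Summed normalised read counts of the olfactory bulb markers ran from 12831 to 55938 in HT fluoxetine males and from 14309 to 40886 in HT vehicle males, and those of the striatal markers from 9635 to 14426 and from 9522 to 16903. High libraries were found in both groups. None of the olfactory bulb or striatal markers rose or fell with fluoxetine, but with such a spread within groups the test could miss a difference. The part of the tissue sampled in the other changes was not tested. Cortical excitatory markers had summed normalised read counts of 156529 to 241789 in HT fluoxetine males and 172144 to 230272 in HT vehicle males. Their mean log2 level was lowest in HT fluoxetine male replicate 2 (-0.378), the library highest in olfactory bulb markers. It ran from -0.115 to 0.161 in the other fluoxetine libraries and from -0.012 to 0.115 in HT vehicle males. Slc17a7, the vesicular glutamate transporter of cortical excitatory neurons, ranged from 44767 to 59313 in HT fluoxetine males and from 43417 to 57702 in HT vehicle males.

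Fluoxetine changed 1026 genes in HT males (5.74% of those tested), of which 462 rose (2.58%) and 564 fell (3.16%). Most changes were small. The median absolute log2 fold change was 0.36 among the genes that changed and 0.14 among all genes tested. Only 38 genes rose and 13 fell by at least 2-fold, and 128 rose and 58 fell by at least 1.5-fold. The lowest fluoxetine library exceeded the highest vehicle library for 490 genes (2.74%), and the highest fluoxetine library lay under the lowest vehicle library for 576 genes (3.22%). The count depended on which libraries were used. The spread was estimated over all 59 libraries, and with these 10 fitted alone the count was 220, of which 62 rose and 158 fell. In the fit of the whole series it was 222 and 667 when fluoxetine replicate 4 or 3 was left out, and 475 and 676 when vehicle replicate 3 or 2 was. With the 4 libraries high in olfactory bulb markers left out, which leaves 3 against 3, it was 5. In that setting each count of list members that rose or fell given below was 0, except that 1 cholesterol gene fell.

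**Figure D1:**
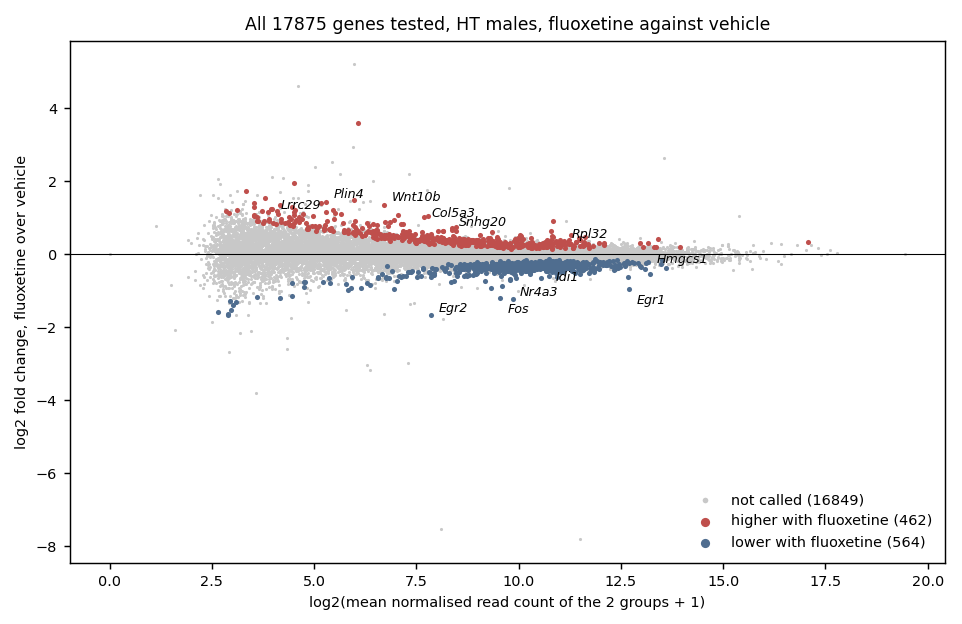
Log2 fold change of fluoxetine over vehicle in HT males (vertical axis) against the log2 mean normalised read count of both groups (horizontal axis) for all 17875 genes tested. Red points are the 462 genes that rose and blue points the 564 that fell. The genes that fell lie mostly at moderate to high counts and within 1 log2 unit of 0, with Nr4a3, Fos and Egr2 among those below that, while several of the largest rises are at low counts.

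Of 28 immediate early genes tested, 8 fell (28.6%) and none rose, against 3.16% falling among all genes tested, and 24 of the 28 had a negative log2 fold change. The median over the list was -0.49, against 0.01 over all genes tested. The 8 were the transcription factor genes Fos, Egr1, Egr2, Egr4, Nr4a3 and Klf10, the growth response gene Ier5, and Homer1, whose short activity-induced form alters the scaffold of glutamate receptors.

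Nr4a3, an orphan nuclear receptor induced by activity, had normalised read counts of 509, 676, 566, 443 and 570 in HT fluoxetine males, against 1326, 1465, 1054, 1163 and 1477 in HT vehicle males. Every fluoxetine library was below every vehicle library. The mean was 553 ± 86.3 with fluoxetine and 1297 ± 186 with vehicle (SD, n = 5 each), a log2 fold change of -1.23 ± 0.20 (limma, adjusted p = 0.000568).

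Egr1, a zinc finger factor used widely as a marker of neuronal activity, had 4530, 3793, 5945, 3930 and 4488 in HT fluoxetine males, against 9025, 11337, 6909, 7285 and 9570 in HT vehicle males. These groups did not overlap either (-0.95 ± 0.18, limma, adjusted p = 0.00142). Fos, a subunit of the AP-1 factor, had 406, 453, 752, 349 and 286 in HT fluoxetine males, against 1133, 1330, 687, 610 and 1451 in HT vehicle males. Here replicate 3 of the fluoxetine group exceeded the lower 2 vehicle libraries, replicates 3 and 4 (-1.21 ± 0.30, limma, adjusted p = 0.0115). Without HT fluoxetine male replicate 4 the fall of Fos no longer passed (-1.14, limma, adjusted p = 0.0556). Nor did it with these 10 libraries fitted alone (-1.21, limma, adjusted p = 0.0907). The same held without the 2 libraries high in striatal markers (-0.926, limma, adjusted p = 0.103). Homer1 had 5107, 4334, 5649, 4601 and 6162 in HT fluoxetine males, all below the 6501, 8816, 9403, 8208 and 7082 of HT vehicle males (-0.63 ± 0.16, limma, adjusted p = 0.0125).

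Egr2, a paralogue of Egr1, showed the largest fall among genes that passed the test with a mean normalised read count of at least 50. Its normalised read counts were 96.0, 107, 206, 80.8 and 73.3 in HT fluoxetine males, against 426, 497, 262, 202 and 376 in HT vehicle males. Only fluoxetine replicate 3 and vehicle replicate 4 met (-1.67 ± 0.34, limma, adjusted p = 0.00307). The promoter of Egr2 is shown because a CArG box, the element bound by serum response factor, lies close to its start site. It is the sequence of chr10:67537316-67537615 (GRCm38.p6, plus strand, RefSeq), from 250 bases before to 50 after the RefSeq start, with the CArG box in capitals, beginning at position -72.
Egr2: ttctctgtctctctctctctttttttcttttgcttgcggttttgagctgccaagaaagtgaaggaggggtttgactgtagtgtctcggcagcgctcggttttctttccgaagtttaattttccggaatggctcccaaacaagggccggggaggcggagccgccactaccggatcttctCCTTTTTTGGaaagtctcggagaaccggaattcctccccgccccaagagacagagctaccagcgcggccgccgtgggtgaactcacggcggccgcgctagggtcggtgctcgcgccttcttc

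The other members did not pass the test, and several spread widely between libraries. Arc, which encodes a synaptic capsid-like protein, had 2026, 1968, 4968, 1537 and 2368 in HT fluoxetine males, against 6766, 5525, 1699, 2044 and 5682 in HT vehicle males (-0.67 ± 0.42, limma, adjusted p = 0.36). Vehicle replicates 3 and 4 were as low as most fluoxetine libraries, and fluoxetine replicate 3 was nearly as high as the other vehicle libraries. The same libraries stood out in the mean log2 level of the whole list, which was -0.572, -0.411, -0.040, -0.555 and -0.382 in HT fluoxetine males, against 0.387, 0.425, -0.274, -0.266 and 0.495 in HT vehicle males. Among the remaining members Fosb (-0.89, adjusted p = 0.10), Nr4a2 (-0.93, adjusted p = 0.16), Npas4 (-0.26, adjusted p = 0.70) and Junb (-0.37, adjusted p = 0.47) missed the threshold in limma. Of these genes 3 fell when HT fluoxetine male replicate 4 was left out, 5 without HT vehicle male replicate 2 and 0 without the 4 libraries high in olfactory bulb markers.

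ERK feedback genes formed a separate list. Most of them restrain growth factor signalling through the ERK kinases, and Etv1, Etv4 and Etv5 were included as well. Of the 15, 3 fell, against 3.16% of all genes, and none rose. Without HT fluoxetine male replicate 4 the count was 2. All 15 log2 fold changes were negative, with a median of -0.18. Dusp6, a phosphatase that inactivates ERK, had 1683, 1332, 2129, 1126 and 1514 in HT fluoxetine males, against 2707, 2988, 1871, 1933 and 2341 in HT vehicle males (-0.61 ± 0.14, limma, adjusted p = 0.00568). The groups overlapped only through fluoxetine replicate 3. Spred1 and Spred2, which block the activation of Raf, did not overlap between groups and both fell, each with a log2 fold change of -0.42 (limma, adjusted p = 0.00525 and 0.00226).

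Of 25 later effectors of neuronal activity tested, 3 fell (12%, against 3.16% of all genes) and none rose, with a median of -0.12. These were Gpr3, a receptor that raises cyclic AMP (-0.62 ± 0.15), the small GTPase gene Arl5b (-0.46 ± 0.11), and Pcsk1, a protease that cuts prohormones (-0.41 ± 0.12), with limma adjusted p of 0.00885, 0.00983 and 0.0355. Without HT fluoxetine male replicate 4 the count was 0, and without replicate 1 it was 5. The neurotrophin gene Bdnf had 914, 722, 844, 525 and 943 in HT fluoxetine males, against 997, 1224, 1043, 1059 and 945 in HT vehicle males. The groups did not overlap, although the highest fluoxetine and lowest vehicle libraries nearly met, and the difference missed the threshold (-0.44 ± 0.15, limma, adjusted p = 0.066).

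**Figure D2:**
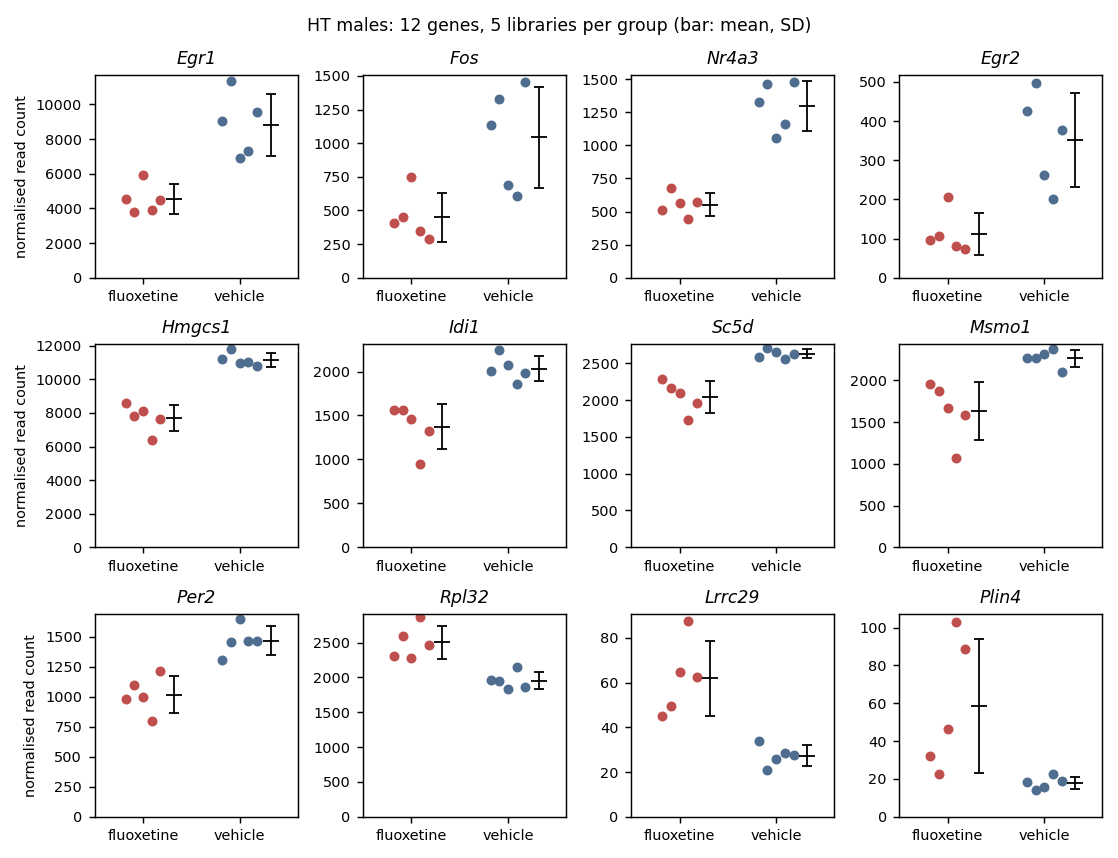
Normalised read count (vertical axes, from 0) of 12 genes in the 5 HT fluoxetine male libraries (red, left) and the 5 HT vehicle male libraries (blue, right), with the mean and SD as a black bar. Nr4a3, Hmgcs1, Idi1, Sc5d, Msmo1 and Per2 are lower in every fluoxetine library than in any vehicle library, and Rpl32 and Lrrc29 are higher, whereas Fos, Egr2 and Plin4 overlap.

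Of 25 genes of cholesterol synthesis tested, 13 fell (52.0%, against 3.16% of all genes) and none rose, with a median log2 fold change of -0.30, and 23 of 25 were negative. Those that fell included genes of early steps (Hmgcs1, Mvd, Idi1), of the steps through squalene and lanosterol (Sqle, Cyp51, Msmo1, Nsdhl, Hsd17b7) and of late steps (Sc5d, Dhcr7), and the sterol carrier gene Stard4. For 9 of the 25 every fluoxetine library was below every vehicle library, as for 3.22% of all genes.

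Hmgcs1, the synthase that makes HMG-CoA early in the pathway, had the smallest p-value of all genes tested. It had 8564, 7807, 8088, 6414 and 7623 in HT fluoxetine males, against 11186, 11833, 10972, 11055 and 10785 in HT vehicle males. The highest fluoxetine library was well below the lowest vehicle library. The means were 7699 ± 801 with fluoxetine and 11166 ± 400 with vehicle (SD, n = 5 each), and the log2 fold change was -0.54 ± 0.071 (limma, adjusted p = 8.09e-06). It was between -0.58 and -0.48 with any single library left out and was still called with each.

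The Hmgcs1 promoter holds a sterol regulatory element, the motif bound by the SREBP factors that drive this pathway, and is shown for that reason. The sequence is chr13:119690101-119690400 (GRCm38.p6, plus strand, RefSeq), with a match to TCACNCCAC in capitals, beginning 137 bases before the start site.
Hmgcs1: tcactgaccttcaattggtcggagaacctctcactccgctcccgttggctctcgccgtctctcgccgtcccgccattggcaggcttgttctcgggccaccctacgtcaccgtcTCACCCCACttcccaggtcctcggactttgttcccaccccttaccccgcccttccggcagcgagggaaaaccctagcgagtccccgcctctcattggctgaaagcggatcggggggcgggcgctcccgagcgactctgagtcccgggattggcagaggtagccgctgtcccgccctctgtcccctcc

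Idi1, which interconverts the isoprenoid building blocks, had 1561, 1562, 1465, 944 and 1328 in HT fluoxetine males, against 2002, 2248, 2074, 1862 and 1980 in HT vehicle males (-0.59 ± 0.10, limma, adjusted p = 0.000819). Msmo1, a demethylase of sterol intermediates, had 1956, 1878, 1663, 1071 and 1582 in HT fluoxetine males, against 2264, 2272, 2311, 2370 and 2095 in HT vehicle males (-0.50 ± 0.11, limma, adjusted p = 0.00375). In both genes the groups were apart and fluoxetine replicate 4 was the lowest library. Sc5d, a desaturase near the end of the pathway, had 2282, 2169, 2095, 1725 and 1955 in HT fluoxetine males, against 2587, 2711, 2659, 2555 and 2622 in HT vehicle males (-0.37 ± 0.063, limma, adjusted p = 0.000583).

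Regulators of the pathway named here did not pass. Srebf2, which encodes the SREBP that drives it, had -0.29 ± 0.093 (limma, adjusted p = 0.051). The sterol sensor partner gene Insig1 (-0.22, adjusted p = 0.093) also missed the threshold in limma. The mean log2 level of the list was -0.179, -0.161, -0.145, -0.416 and -0.037 in HT fluoxetine males, against 0.043, 0.217, -0.040, 0.054 and 0.112 in HT vehicle males, so that the groups overlapped only where fluoxetine replicate 5 met vehicle replicate 3. Leaving out HT fluoxetine male replicate 4 gave 6 falls in place of 13, and there were 5 with these 10 libraries fitted alone and 1 without the 4 libraries high in olfactory bulb markers. Markers of oligodendrocytes and myelin had a median log2 fold change of -0.39 in the same libraries, with 18 of 19 negative and none passing the test. Their mean log2 level ran from -0.646 to 0.215 in HT fluoxetine males and from -0.127 to 0.479 in HT vehicle males, and their summed normalised read counts from 89181 to 171178 and from 132742 to 202774. The part of myelinating cells in the fall of the cholesterol genes was not tested.

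A list that joins fatty acid synthesis genes with targets of the nuclear receptor LXR moved in fewer members. Of its 19 genes 3 fell (15.8%, against 3.16% of all genes) and none rose (median -0.11), and the 3 belong to fatty acid synthesis. The elongases Elovl6 (-0.44 ± 0.088) and Elovl5 (-0.39 ± 0.098) and the ATP citrate lyase gene Acly (-0.21 ± 0.057), which makes cytosolic acetyl-CoA, fell with limma adjusted p of 0.00242, 0.0109 and 0.0184. Of these, Elovl6 alone had groups that did not overlap. The fatty acid synthase gene Fasn had -0.11 (adjusted p = 0.71). The count was 1 without HT fluoxetine male replicate 4.

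**Figure D3:**
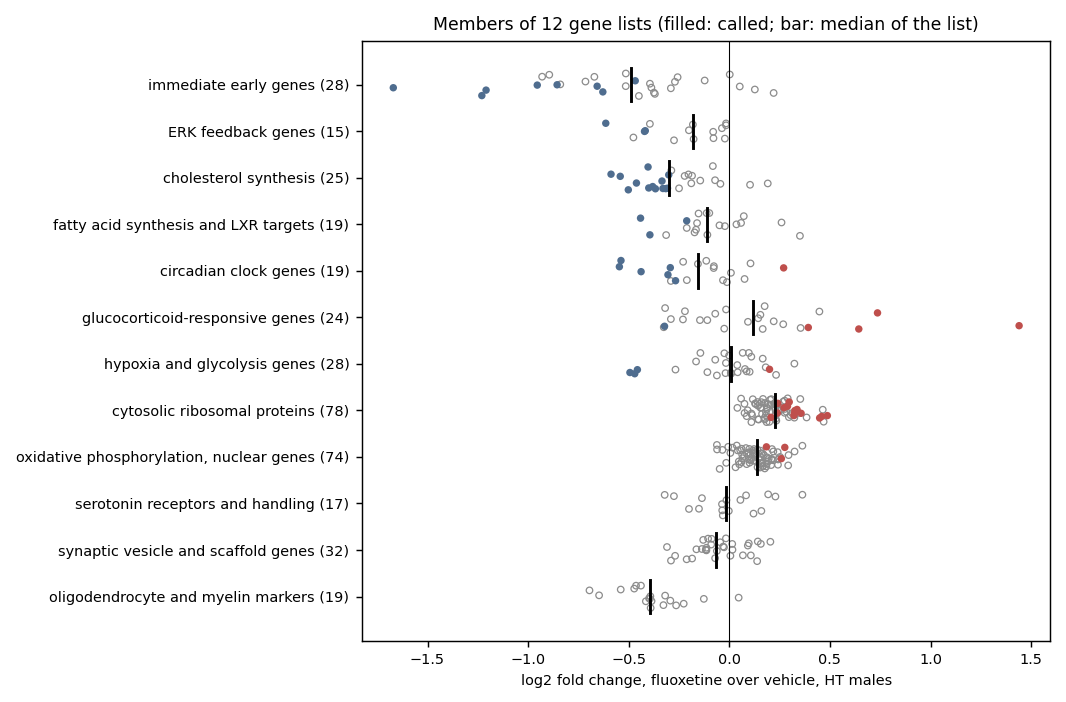
Log2 fold change of fluoxetine over vehicle in HT males (horizontal axis) for each tested member of 12 gene lists (rows, with the number of members tested). Filled points passed the test, blue where lower and red where higher, open points did not, and the black bar is the median of the list. Immediate early, ERK feedback and cholesterol genes lie mostly left of 0 and ribosomal protein genes right of 0, while serotonin and synaptic genes are spread around 0 with no filled point.

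Circadian clock genes changed in 7 of 19 members, with 6 lower and 1 higher, against 3.16% lower and 2.58% higher over all genes. Per2, a repressor of the clock that also responds to neuronal and hormonal signals, had 979, 1102, 999.6, 798 and 1213 in HT fluoxetine males, against 1306, 1457, 1652, 1469 and 1465 in HT vehicle males. The groups were separate (-0.54 ± 0.095, limma, adjusted p = 0.000743). Bhlhe40, a repressor induced by activity, had -0.55 ± 0.12, and the core activator Arntl had -0.31 ± 0.082, with limma adjusted p of 0.00633 and 0.0192. The nuclear receptor genes Nr1d1 (-0.44), Nr1d2 (-0.27) and Rora (-0.29) also fell. Per3 rose by 0.27 ± 0.081 (limma, adjusted p = 0.0358), although Per3 overlaps Camta1 on the same strand. Dbp, the clock output gene with a large daily swing, had -0.01 (adjusted p = 0.97). When fluoxetine replicate 4 was left out, 2 were lower and 0 higher, and when vehicle replicate 3 was, 3 were lower and 0 higher. The hour of dissection is not in the labels.

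Glucocorticoid-responsive genes were mixed, with 4 of 24 rising and 1 falling, against 2.58% and 3.16% of all genes. Plin4, a lipid droplet protein, had 32, 22.5, 46.4, 103 and 88.7 in HT fluoxetine males, against 18.4, 14.2, 15.7, 22.5 and 19.1 in HT vehicle males. Replicates 4 and 5 of the fluoxetine group were far above all others (1.44 ± 0.33, limma, adjusted p = 0.00643). Mt1, a metallothionein (0.39 ± 0.11), the sulfotransferase gene Sult1a1 (0.64 ± 0.18) and Hif3a (0.74 ± 0.23) rose as well, with limma adjusted p of 0.0207, 0.0274 and 0.0426. Fkbp5, a co-chaperone of the glucocorticoid receptor, had 872, 983, 1268, 2133 and 1596 in HT fluoxetine males, against 876, 1000, 1009, 984 and 902 in HT vehicle males. Only fluoxetine replicates 3, 4 and 5 exceeded the vehicle range (0.45 ± 0.19, limma, adjusted p = 0.14). The receptor gene Nr3c1 fell (-0.32 ± 0.098, limma, adjusted p = 0.0393). None of the list passed without HT fluoxetine male replicate 4, while 1 rose when vehicle replicate 2 was left out and 2 when fluoxetine replicate 3 or vehicle replicate 5 was.

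The genes that rose with the smallest p-values were less familiar in this tissue. Lrrc29, an F-box leucine-rich repeat gene, had 45, 49.6, 64.6, 87.5 and 62.4 in HT fluoxetine males, against 33.7, 20.8, 25.9, 28.3 and 27.6 in HT vehicle males. All fluoxetine libraries were above all vehicle libraries, at low counts (1.13 ± 0.19, limma, adjusted p = 0.000568). Snhg20, a host transcript of small nucleolar RNAs, had 355, 398, 397, 484 and 397 in HT fluoxetine males, against 286, 232, 232, 235 and 286 in HT vehicle males (0.67 ± 0.12, limma, adjusted p = 0.000594). Spaca6 (0.52), a sperm membrane gene that hosts microRNAs, the uncharacterised AI480526 (0.62), the zinc finger genes Mzf1 (0.39) and Zfp512b (0.35), and Nrde2 (0.41), a nuclear RNA surveillance factor, rose without overlap between groups. So did Cdk9 (0.29), the kinase that releases paused RNA polymerase II, Ppib (0.27), a cyclophilin of the endoplasmic reticulum, and the methyltransferase gene Setd4 (0.55). Zfp512b overlaps Uckl1 on the same strand, so its count may include reads of that gene.

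Of 78 ribosomal protein genes tested, 14 rose (17.9%, against 2.58% of all genes) and none fell, and all 78 had a positive log2 fold change, with a median of 0.23. Rpl32 had 2308, 2595, 2280, 2864 and 2459 in HT fluoxetine males, against 1962, 1949, 1830, 2143 and 1864 in HT vehicle males, without overlap (0.36 ± 0.065, limma, adjusted p = 0.000887). Rps21 rose by 0.46 ± 0.090, Rpl37 by 0.49 ± 0.10 and Rps25 by 0.34 ± 0.080, with limma adjusted p of 0.00204, 0.00417 and 0.00892. Ribosomal protein genes have many processed pseudogenes that share their reads, so single values are uncertain. The count of 14 was 5 with trends in GC content and length removed, 24 with DESeq2, 5 with these 10 libraries fitted alone, 0 without the 4 libraries high in olfactory bulb markers, 3 when fluoxetine replicate 4 was left out, 22 without fluoxetine replicate 1, and 8, 6 and 7 without vehicle replicates 1, 3 and 5. Nuclear genes of oxidative phosphorylation had 68 of 74 positive values (median 0.14). Of the 74, 3 rose (4.05%, against 2.58% of all genes), Ndufa5, Ndufv1 and Atp5j. The count was 0 with the GC and length trends removed or without fluoxetine replicate 4. A single one rose without fluoxetine replicate 3 or vehicle replicate 3 or 5. None of the 13 mitochondrially encoded genes passed, and their mean log2 level ran from -0.531 to 0.443 in HT fluoxetine males and from -0.750 to 0.471 in HT vehicle males.

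Several of the largest rises depended in size on one library. Col5a3, a fibrillar collagen gene, had 165, 204, 196, 691 and 185 in HT fluoxetine males, against 121, 129, 108, 105 and 144 in HT vehicle males. The groups did not overlap, and replicate 4 was more than 3 times the next library (1.01 ± 0.21, limma, adjusted p = 0.00312). Without it the log2 fold change was 0.63, and Col5a3 passed with each single library left out. It did not pass with these 10 libraries fitted alone (1.01, limma, adjusted p = 0.15). Wnt10b, a secreted Wnt ligand, had 57.0, 102, 106, 444 and 92.0 in HT fluoxetine males, against 66.4, 37.1, 42.7, 44.9 and 46.8 in HT vehicle males, and did not pass without that library (0.88, adjusted p = 0.0715). Snhg3, which overlaps Rcc1 on the same strand, had 450 in replicate 4 and 95.2 to 123 in the other fluoxetine libraries, against 58.5 to 86.9 in HT vehicle males. Its rise did not pass without replicate 4 either (0.50, adjusted p = 0.0775). Heyl, a Notch target (1.04 ± 0.31, limma, adjusted p = 0.0356), lost its call when any of 7 single libraries was left out. Npcd (1.49 ± 0.44, limma, adjusted p = 0.0342), which overlaps Nptxr and Cbx6 on the same strand, lost it when any of 6 was. With these 10 libraries fitted alone, Wnt10b, Snhg3 and Heyl did not pass either (limma, adjusted p = 0.146, 0.214 and 0.117).

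HT fluoxetine male replicate 4 was unusual in gene groups as well. Interferon-stimulated genes had a mean log2 level of 0.674 in it and of -0.174 to 0.071 in the other fluoxetine libraries, against -0.109 to 0.134 in HT vehicle males, and none of the 25 passed. Microglial (-0.358), endothelial (-0.341) and mural cell (-0.388) markers were at their lowest in this library, against -0.089 to 0.169, -0.104 to 0.190 and -0.062 to 0.192 in HT vehicle males. Counts without it are given with the gene lists.

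**Figure D4:**
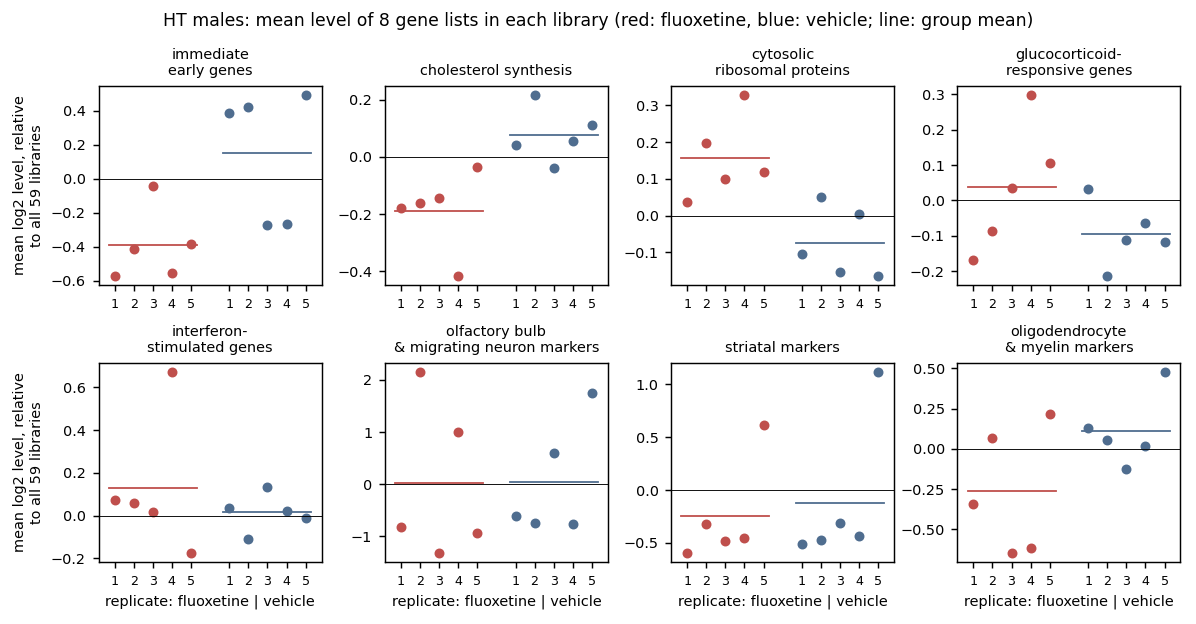
Mean log2 level of 8 gene lists relative to all 59 libraries (vertical axes) in each HT fluoxetine male (red, left) and HT vehicle male library (blue, right), by replicate number (horizontal axes), with group means as lines. Fluoxetine replicate 4 is highest for interferon-stimulated (0.674) and glucocorticoid-responsive genes (0.299) and lowest for cholesterol genes (-0.416), and olfactory bulb markers are high in fluoxetine replicates 2 and 4 and vehicle replicates 3 and 5.

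Among the other genes that fell with the smallest p-values were regulators of signalling and metabolism. Cbfa2t3, a transcriptional corepressor, had 613, 714, 681, 644 and 742 in HT fluoxetine males, against 1044, 1247, 1127, 962 and 1075 in HT vehicle males (-0.68 ± 0.11, limma, adjusted p = 0.000548). Sik2, a salt-inducible kinase that restrains CREB coactivators, had 763, 793, 717, 765 and 805 in HT fluoxetine males, against 934, 1129, 1156, 1110 and 1185 in HT vehicle males (-0.52 ± 0.086, limma, adjusted p = 0.000568). The groups were apart in both genes. Ipmk, an inositol phosphate kinase (-0.37), Lims1, an adaptor of integrin signalling (-0.42), the carboxypeptidase gene Cpd (-0.28), the actin capping gene Tmod3 (-0.39) and the zinc finger corepressor gene Zfp366 (-0.75) fell without overlap as well.

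Genes of hypoxia and glycolysis were not shifted as a list (median 0.01), yet 3 of 28 fell and 1 rose, against 3.16% and 2.58% of all genes. Pfkfb3, which makes the activator of phosphofructokinase, had 783, 776, 775, 610 and 801 in HT fluoxetine males, against 912, 1081, 1105, 1103 and 1063 in HT vehicle males (-0.49 ± 0.085, limma, adjusted p = 0.000583). P4ha1, a collagen prolyl hydroxylase subunit (-0.47 ± 0.080), and Slc16a1, a lactate transporter (-0.46 ± 0.085), were also separate between groups, with limma adjusted p of 0.000583 and 0.00117. With each single library left out, 3 members of the list fell, and without the 4 libraries high in olfactory bulb markers 0 did. The phosphofructokinase gene Pfkm rose by 0.20 ± 0.059 (limma, adjusted p = 0.0331) and did not pass without fluoxetine replicate 3, 4 or 5 or vehicle replicate 1, 3 or 5.

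Single members of other signalling lists fell. Rara, the retinoic acid receptor alpha gene, had 199, 270, 229, 279 and 299.9 in HT fluoxetine males, against 401, 505, 403, 368 and 441 in HT vehicle males (-0.73 ± 0.15, limma, adjusted p = 0.0034). Gadd45a, a stress-induced growth arrest gene and p53 target, had 89.0, 106, 107, 79.7 and 105 in HT fluoxetine males, against 191, 186, 139, 144 and 149 in HT vehicle males (-0.72 ± 0.14, limma, adjusted p = 0.0024). Ccnd2, a cyclin of the G1 phase, had 2193, 2169, 2241, 2015 and 2460 in HT fluoxetine males, against 3465, 2951, 3114, 3199 and 2892 in HT vehicle males (-0.50 ± 0.11, limma, adjusted p = 0.00469). All 3 were lower in every fluoxetine library. Of 19 genes of immature neurons and growth, Nes (-0.60) and Marcks (-0.36) fell. The insulin receptor substrate gene Irs2 (-0.47), the growth factor genes Pdgfb (-0.32) and Fgf1 (-0.29), the Wnt coreceptor gene Lrp6 (-0.20) and the stress response factor gene Xbp1 (-0.26) also fell. These were 1 or 2 members of each list, 3.23% to 10.5% of the members tested, against 3.16% of all genes. Without HT fluoxetine male replicate 4, 1 gene still fell in each of the retinoic acid, p53, cell cycle, IGF and immature neuron lists, and 0 in the growth factor, Wnt and unfolded protein lists.

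In the serotonin system, where fluoxetine acts, no gene passed. None of 17 tested genes of serotonin receptors and handling passed, with a median of -0.01. Htr3a, the ionotropic receptor subunit, came closest, with 216, 220, 187, 306 and 280 in HT fluoxetine males, against 192, 194, 166, 198 and 174 in HT vehicle males (0.36 ± 0.12, limma, adjusted p = 0.063). Htr1a (0.23 ± 0.13), Htr2a (0.12 ± 0.14) and Htr2c (-0.32 ± 0.27) had limma adjusted p of 0.29, 0.68 and 0.50. All 17 members of the list present in the deposited values were tested. The transporter gene Slc6a4, made in neurons of the raphe, was not among them. Of 22 glutamate receptor genes, 29 voltage-gated ion channel genes and 32 synaptic vesicle and scaffold genes, none passed. Gabra2, a GABA-A receptor subunit, was the only one of 20 GABA genes to fall (-0.51 ± 0.15, limma, adjusted p = 0.0304). That is 5.0% of the list, against 3.16% of all genes, and none fell without HT fluoxetine male replicate 4.

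Few chromatin genes related to Ash1l passed. Kdm2a, a demethylase of lysine 36 of histone H3, had 2383, 2402, 2421, 2488 and 2413 in HT fluoxetine males, against 2751, 2624, 2813, 2820 and 2768 in HT vehicle males, the only one of 15 enzymes of this mark to fall (-0.19 ± 0.058, limma, adjusted p = 0.0425). That is 6.67% of the list, against 3.16% of all genes, and the call was lost in 9 of 10 cases when a single library was left out. Of 30 Trithorax and Polycomb genes, Pcgf2 (0.41 ± 0.11) and Kdm6a (0.27 ± 0.067) rose and Kmt2a (-0.29 ± 0.090) fell, with limma adjusted p of 0.0197, 0.0104 and 0.044. These are 6.67% higher and 3.33% lower, against 2.58% and 3.16% of all genes, and with a single library left out 0 to 5 rose and 0 or 1 fell. Of 50 autism risk genes, Fmr1 (-0.36), which encodes the fragile X protein, Naa15 (-0.23) and Tcf20 (-0.21) fell and none rose (6.00%, against 3.16% of all genes), and with any single library left out 0 to 2 fell.

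Markers of glia and vessels changed in few members. The astrocyte water channel gene Aqp4 (-0.50) and gap junction gene Gja1 (-0.30), the endothelial genes Flt1 (-0.36) and Itm2a (-0.37), the pericyte gene Rgs5 (-0.41), the microglial receptor gene P2ry12 (-0.41) and Gpr17 of oligodendrocyte precursors (-0.39) fell. These were 1 or 2 members of each list, 5.56% to 11.1% of the members tested, against 3.16% of all genes. None of these lists had a member that fell without HT fluoxetine male replicate 4. For Aqp4, the values were 3547, 4534, 3020, 1970 and 2505 in HT fluoxetine males, against 3407, 4112, 4816, 4348 and 4588 in HT vehicle males, so the fall rested on fluoxetine replicates 3 to 5. Medians of the lists were -0.01 for 18 astrocyte, -0.15 for 18 endothelial, -0.13 for 13 mural cell and -0.12 for 18 microglial markers. No pan-neuronal, excitatory neuron, interneuron, meningeal, choroid plexus, ependymal or blood cell marker passed. Their part in the other changes was not tested.

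The genes that rose and those that fell differed in kind. Of the genes that rose, 74.2% were protein coding, against 97.2% of those that fell and 84.9% of all tested. The median transcript length was 2698 bases for genes that rose and 4425 bases for genes that fell, against 3177 bases over all genes. Median GC content was 52.2% and 44.5%, against 49.3%. Across 17864 genes, which are not independent replicates, Spearman's rho of the log2 fold change was 0.238 against GC content and -0.243 against transcript length. With these trends removed from each library, 405 genes rose and 504 fell, and 673 of the 1026 genes were among them. The counts of immediate early genes (9) and cholesterol genes (14) that fell were then about as before.

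Short promoter windows were searched on both strands for motifs of the factors named above, with matches of different motifs allowed to overlap. The sterol regulatory element TCACNCCAC was in 1 of 17 cholesterol genes with a RefSeq promoter, Hmgcs1, against 1.37% of the 12676 tested genes with one. A CArG box was in 1 of 22 immediate early genes, Egr2, against 1.63%, and in 3.02% of the genes that fell and 0.302% of those that rose. The cyclic AMP response element TGACGTCA was in 2 of 22 immediate early genes and 2 of 21 glucocorticoid-responsive genes, against 3.31%. The E-box CACGTG, bound by clock factors among others, was in 5 of 17 clock genes, against 11%. It was also in 4 of 17 cholesterol genes, 5 of 22 immediate early genes and 4 of 21 glucocorticoid-responsive genes. Of the genes that fell 14.4% had it, and of those that rose 10.9%. These counts describe 300 bases per gene and say nothing of sites elsewhere.

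Whether the response depended on genotype or sex was tested as a difference of responses. Between HT males and WT males 1 gene differed (0.00559%), Cnih1, a cornichon protein of export from the endoplasmic reticulum. It had 1364, 1397, 1356, 1208 and 1256 in HT fluoxetine males, against 1474, 1647, 1664, 1704 and 1509 in HT vehicle males, and averaged 1631 ± 126 in WT fluoxetine males and 1476 ± 113 in WT vehicle males (SD, n = 5 each). The log2 fold change was -0.28 in HT males and 0.14 in WT males, a difference of -0.43 ± 0.080 (limma, adjusted p = 0.0402). Over the alternatives the number of such genes was 0 to 11, and Cnih1 overlaps Gm48933 on the other strand. An unadjusted p under 0.05, which many of 17875 genes reach by chance alone, was found for 1601 in limma. The next smallest p-values were those of BC031181 and Cep164 (limma, adjusted p = 0.1145 for each).

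Between HT males and HT females no gene passed in limma (0.0%) or edgeR, and 25 did in DESeq2. Of 17875 genes, 1433 had an unadjusted p under 0.05 in limma, a count that includes genes there by chance. The lowest adjusted p, 0.204, was shared by 19 genes. The smallest unadjusted p-values were those of Gm2694 (difference 1.065 ± 0.24), Kcne4 (-1.162 ± 0.27) and 1500026H17Rik (1.072 ± 0.25). The immediate early genes Egr1, Egr2, Fos and Nr4a3 were also among the 19, as were Snhg3 and Cpd. Fos averaged 449 ± 181 in HT fluoxetine males and 1042 ± 378 in HT vehicle males, and 1401 ± 427 in HT fluoxetine females and 980 ± 356 in HT vehicle females (SD, n = 5 each). Its log2 fold change was -1.21 in HT males and 0.53 in HT females, and the difference of -1.74 ± 0.42 did not pass (limma, adjusted p = 0.204). For Egr1 the log2 fold changes were -0.95 in HT males, -0.64 in WT males, 0.07 in HT females and -1.21 in WT females. The median over the immediate early list was -0.49 in HT males, -0.37 in WT males, 0.30 in HT females and -0.67 in WT females. HT females thus had the only median above 0, a difference that was not tested for the list.

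Cholesterol genes had medians of -0.30 in HT males, -0.08 in WT males, -0.08 in HT females and -0.18 in WT females. Hmgcs1 was lower with fluoxetine in each, by -0.54, -0.22, -0.28 and -0.27, and neither difference from HT males passed (limma, adjusted p = 0.28 against WT males and 0.46 against HT females). Ribosomal protein genes had medians of 0.23 in HT males, 0.21 in WT males, 0.04 in HT females and -0.10 in WT females. Of the 564 genes that fell in HT males, 88.7% had the same sign in WT males, 86.5% in HT females and 77.3% in WT females, against 62.0%, 58.8% and 55.8% of the negative genes that did not pass. Of the 462 that rose, 80.3%, 74.5% and 80.5% had the same sign, against 62.6%, 61.9% and 61.7% of the positive genes that did not pass. These strata share no library with the HT males. Fluoxetine changed 152 genes in WT males, 0 in HT females and 509 in WT females with limma at the same threshold.

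**Figure D5:**
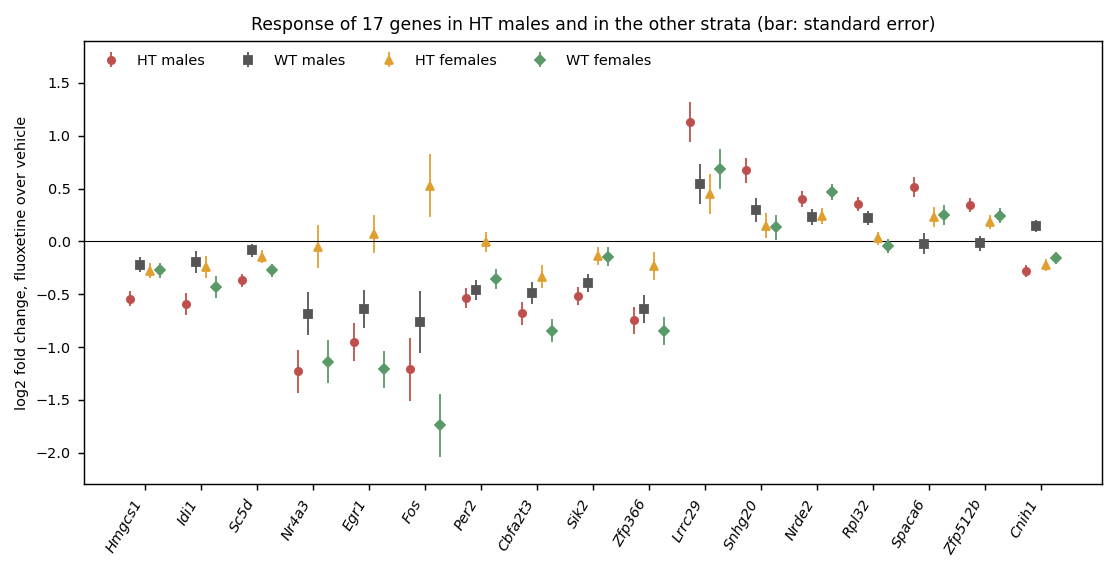
Log2 fold change of fluoxetine over vehicle (vertical axis) with its standard error for 17 genes (horizontal axis) in HT males, WT males, HT females and WT females. In HT males Nr4a3, Egr1 and Fos are at -1.23, -0.95 and -1.21, near 0 or above it in HT females, and below 0 in both WT groups, and Cnih1 is negative in HT males and positive in WT males.

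HT males treated with lithium, a comparison that uses the same 5 vehicle libraries, had smaller changes for the genes given here. These genes were named for their change with fluoxetine, and that choice alone favours smaller values with lithium. With lithium the log2 fold change was -0.27 for Nr4a3, -0.32 for Egr1 and -0.29 for Hmgcs1, and with fluoxetine -1.23, -0.95 and -0.54. For Plin4 the values were 1.12 with lithium and 1.44 with fluoxetine. None of these lithium values passed in limma (lowest adjusted p = 0.055, for Hmgcs1), and the difference between the drugs was not tested.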

How the data were processed

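Libraries were made with a TruSeq Stranded mRNA kit, per the labels' protocols, which selects polyadenylated RNA. Per the submitters' processing notes, Salmon 0.11.2, R 3.6.0, DESeq2 1.19.11 and GRCm38 were used, with no role or order given. The authors deposited a signal table of 18088 genes by 59 libraries, in which read counts had been divided by size factors. Within a tolerance of 0.01, 100% of values were whole multiples of 1 read, so that the counts were recovered for edgeR and DESeq2. Sources used here do not name the annotation or strand setting. Symbols and positions came from GENCODE M21 (GRCm38) for 18077 genes, and promoters from RefSeq (GRCm38.p6).

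Genes with a normalised count of at least 10 in at least 5 libraries were tested (17875, with 213 left out) with limma 3.58.1 (R 4.3.3, mean-variance trend, robust variances, pseudocount 1) over all 59 libraries, with each group given its own mean. On recovered reads edgeR called 1043 genes and DESeq2 1350. Adjustment was by Benjamini-Hochberg at 0.05. Alternatives included edgeR 4.0.16 and DESeq2 1.42.0 on recovered counts, other scaling, pseudocounts and filters, a replicate block, GC and length trends removed, and libraries left out. The code was tested on simulated data. No 2 of the 10 libraries agreed within sampling noise (chi-square per degree of freedom at least 13.6).

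Named genes were Ash1l, the 12 with the smallest p-values and the 5 with the largest changes (mean count at least 50) in each direction, leaving out predicted and unnamed genes, up to 4 called members per list and direction, and up to 6 per direction or the 3 with the smallest p-values for a difference of responses. Others named in the text, such as members that missed the threshold, were chosen after their values were seen. Members and the 52 gene lists were chosen with earlier results of these data known. Some members of the lists are counted but not reported by name here.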

Additional observations from a re-analysis of the deposited data

Results flagged for a closer look

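In groups of 5 libraries, 1 library was tested for standing apart from the other 4 (Dixon's test), and 14 of 170 groups held such a library. Chance gives about 1 in 20 independent groups. These groups share the same libraries, and many hold genes picked for large changes, so the count cannot be set against that rate. HT fluoxetine male replicate 4 accounted for 7 of the 14. It had 691 normalised reads for Col5a3 (165 to 204 in the other fluoxetine libraries), 449.5 for Snhg3 (95.2 to 123) and 610.1 for Pfkfb3 (775 to 801). Its mean log2 level was 0.674 for interferon-stimulated genes (-0.174 to 0.071 in the others), -0.251 for heat shock genes (-0.052 to 0.010), -0.358 for microglial markers (-0.025 to 0.10) and -0.388 for mural cell markers (-0.040 to 0.10).

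Cdk9 was lowest in HT fluoxetine male replicate 1, at 2541 (2743 to 2788 in the others). Striatal markers stood at 0.615 in HT fluoxetine male replicate 5 (-0.593 to -0.320) and at 1.119 in HT vehicle male replicate 5 (-0.507 to -0.311). In HT vehicle male replicate 5 Colq had 61.66 normalised reads (74.0 to 78.6) and Notch pathway genes a mean log2 level of 0.237 (-0.074 to -0.048). In HT vehicle male replicate 1 Sik2 had 934.3 (1110 to 1185) and Pfkfb3 911.8 (1063 to 1105).

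The response of Cnih1 differed between HT males and WT males by a test of the difference itself (log2 difference -0.425, limma, adjusted p = 0.0402).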

How the results depend on the processing

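The number of genes changed in HT males, 1026, was within 1.5 times of that under edgeR, DESeq2, TMM scaling, other pseudocounts and filters, no variance trend and the GC and length correction. It was 220 with the 10 libraries fitted alone (28.2% of them higher, against 45%), 5 without the 4 libraries high in olfactory bulb markers, 501 without the 2 high in striatal markers, and 222 to 1329 with 1 library left out. These marker alternatives, and the olfactory bulb level as a covariate (1360), were chosen after seeing the data. With the 10 libraries fitted alone, 7 of 34 named genes lost the call, among them Fos, Zfp366 and Col5a3. Without the 4 libraries, 31 of 34 named genes lost the call, with 3 libraries left in each group. Some kept their size (Nr4a3 -1.26 against -1.23, Egr2 -1.62 against -1.67) and others shrank (Snhg3 0.34 against 0.93, Wnt10b 0.76 against 1.35, Col5a3 0.62 against 1.01, Rpl32 0.22 against 0.36). Ash1l was 0.053 with GC and length trends removed, with and without the block, against -0.02. The cause was not tested.

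Genes whose response differed from WT males (1) numbered 11 with DESeq2, 0 with the compared groups alone, without the 4 libraries or with the covariate, 2 with GC and length trends removed, 3 with the block added or without the 2 striatal-high libraries, and 0 to 4 with 1 library left out. Differences from HT females (0) numbered 25 with DESeq2 and 0 to 4 with 1 library left out.

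Replicate numbers did not pair the libraries: same-numbered HT male libraries had residual correlations of -0.179 to 0.0465, with 0 of 5 above 0.1. With the replicate block 944 genes changed. Lrrc29, Plin4 and Egr2 rest on normalised counts of about 100 or fewer in some libraries, where counting error limits precision.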

Other observations

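Host transcripts of small nucleolar RNAs, a set chosen after its values were seen, rose in 4 of 13 tested members, against 2.58% of all genes. None fell, and the median log2 fold change was 0.27. Besides Snhg20 and Snhg3 these were Snhg8 (0.41, adjusted p = 0.0347, limma) and Snhg6 (0.41, adjusted p = 0.048). Pomc, the precursor of corticotropin and endorphin, also chosen after its values were seen, had 44.0, 57.1, 44.6, 59.8 and 40.5 normalised reads in HT fluoxetine males, against 12.3, 42.6, 9.0, 16.6 and 21.3 in HT vehicle males (1.41, limma, adjusted p = 0.0426). The groups overlapped through vehicle replicate 2.

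Some genes switched between 0 and high counts from library to library, and those given here were chosen after their values were seen. Fam205a2 was at 0 in all 5 HT fluoxetine males and in 1 of 5 HT vehicle males, where the others had 499 to 862 (limma, adjusted p = 0.0502), and it was at 0 in 27 of all 59 libraries. Its paralogue Fam205a4 was at 0 in 1 of 5 HT fluoxetine males and in all 5 HT vehicle males, and at 0 in 37 of 59 libraries. Gdf1 had 54.0, 130, 102, 70.9 and 148 in HT fluoxetine males, against 0, 118, 0, 0 and 0 in HT vehicle males (limma, adjusted p = 0.0578). No fold is given for these genes.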
